A study of Mus musculus with 23 samples.

Results

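Spleen DNA of male C57Bl/6 mice fed much resistant starch (the high fibre diet) was compared with spleen DNA of mice on a control diet without resistant starch. The comparison used 4 high fibre and 4 control libraries, 8 of the 23 libraries of the study, and covered every window of the spleen table. Of 41388 windows of 3 kb at transcription start sites, 24871 had enough reads to be tested, and 4622 had no read in any spleen library. Mice were housed singly, and each diet ran from 3 weeks before minipump surgery to the end of the experiment. All groups shared strain, sex and that surgery, and the labels used here do not give the age of the mice or the content of the pump. Another spleen group of 4 libraries received 100 mM magnesium acetate in the drinking water and entered the model to help estimate the spread. Whether the 4 libraries of a group stem from 4 different mice is not stated, and the p-values therefore cover only the spread among the libraries, which may in part be technical.

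Resistant starch escapes digestion in the small intestine and is fermented by gut bacteria to the short-chain fatty acids acetate, propionate and butyrate. These acids reach other organs through the blood, act on G protein-coupled receptors such as Ffar2 and Ffar3, and butyrate and propionate inhibit histone deacetylases. The spleen filters blood and holds B cells, T cells and macrophages, all of which can meet these acids. DNA methylation at CpG sites near a transcription start is a mark often linked to low transcription of the gene.

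The DNA was sheared, and fragments with methylated CpG were captured with the MethylMiner kit, which uses a methyl-CpG binding protein, and then sequenced. A count is the number of reads in one gene's window in one library. Levels are given as CPM, the count relative to each M (mega) of library size after TMM scaling, which sets libraries to a common level over most windows. All windows span 3 kb, so their CPM values can be set beside each other as captured DNA per window. No library of unenriched DNA was used, so the values compare libraries and give no methylation level on an absolute scale. The counts also carry the efficiency of the capture and the copy number of the DNA. The spleen is a mixture of cells, and a different share of one cell type cannot be told apart from a different methylation within that type.

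High fibre libraries held 7.25 ± 0.714 M (mega) reads and control libraries 8.48 ± 1.21 M (SD, n = 4 each). A single window, Gm10800, a predicted gene, took 55.8% ± 4.70 of reads in high fibre libraries and 55.8% ± 2.84 in control libraries. Outside the 5 windows with most reads, 2.78 ± 0.614 and 3.21 ± 0.572 M reads were left. The share of windows without reads was 20.1% ± 0.790 in high fibre and 19.7% ± 2.31 in control libraries. In a measure of capture, the mean log2 level of imprinted and germline windows minus that of housekeeping windows was 1.71 ± 0.0848 and 1.67 ± 0.170. Over 7 such measures, the smallest exact two-sided permutation p was 0.143, for the total, and the smallest after Benjamini-Hochberg adjustment was 0.867, where 4 libraries against 4 allow no p below 0.0286. The difference in the capture measure, high fibre minus control, was 0.0457. It became 0.129 without control library 1 (exact two-sided permutation p = 0.0571), 0.00364 without high fibre library 1, and 0.00622 and 0.0138 without control library 2 and 3. The libraries numbered 1 of both diets stood apart together: they had the highest capture measure of their group, 1.92 in control and 1.84 in high fibre, and scores of 53.5 and 48.4 on the first principal component, where the other libraries of these diets lay between -33.2 and 13.6.

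**Figure D1:**
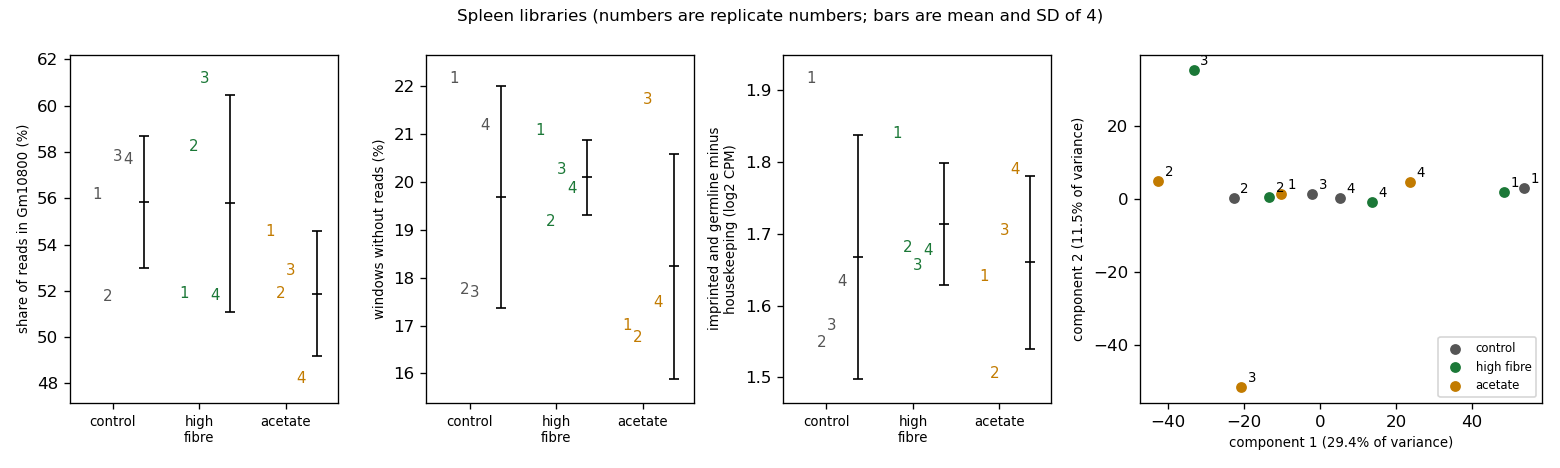
Measures of the 12 spleen libraries: share of reads in Gm10800 (%), share of windows without reads (%), imprinted and germline minus housekeeping windows (log2 CPM), and the first 2 principal components of log2 CPM. Digits are replicate numbers and bars are mean and SD of 4 libraries; the control and high fibre libraries numbered 1 lie side by side at 53.5 and 48.4 on component 1.

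The tissue label was checked at marker windows by comparing spleen with heart left ventricle, both on the control diet, in one fit of all 23 libraries and 33982 windows. Of these, 72.7% were called, 32.7% higher and 40% lower in spleen (edgeR quasi-likelihood test, Benjamini-Hochberg adjusted p under 0.05), with a median log2 difference of -0.20. Relative to that median, the median of 22 B cell windows was lower by 0.33 and that of 23 T and NK cell windows by 0.38. The median of 25 cardiomyocyte windows was higher by 0.56 (log2), which was not particular to them. Windows of helper and regulatory T cells lay higher by 0.40, housekeeping by 0.42, splenic stroma and endothelium by 0.60, and pancreas and fat by 0.67. The lists of chemokines (-0.77), myeloid cells (-0.19), short-chain fatty acid sensing (-0.14) and inflammation (-0.02) lay lower. All remaining lists lay higher. Of the 22 B cell windows 2 were called higher and 13 lower in spleen, of the 23 T and NK cell windows 5 and 12, and of the 25 cardiomyocyte windows 13 and 9, so each list held calls in both directions. Windows of Myh6 and Tnnt2, genes of the cardiac sarcomere, held more captured DNA in spleen, by 1.73 (SE 0.167) and 1.13 (SE 0.132) on the log2 scale. Windows of Ptprc, which encodes the leukocyte antigen CD45, and of Cd79a, part of the B cell receptor, held less, with log2 differences of -0.81 (SE 0.182) and -0.84 (SE 0.207). Other markers went the opposite way or were not called: Nppa, a natriuretic peptide gene of the heart, was lower in spleen (-0.78, SE 0.200), Tcf7, a T cell transcription factor gene, was higher (0.33, SE 0.136), and Cd3e had -0.13 (SE 0.149, adjusted p = 0.443). The call at Tnnt2 was lost when libraries were scaled by their totals (log2 difference 0.21, adjusted p = 0.185), a scaling that moved the median of all windows to -1.10 and the share of higher windows among those called from 44.99% to 8.16%. Under that scaling 3 of the 25 cardiomyocyte windows were called higher and 15 lower. Under the 4 scalings the offsets of the B cell, T and NK cell and cardiomyocyte lists from the all-window median kept their sign. A scaling moves all windows by nearly the same amount, so this was fixed in advance and adds nothing to the check.

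Between the high fibre and control diets, no spleen window was called. Of the 24871 windows tested, 0 (0%) passed an adjusted p of 0.05 by edgeR's quasi-likelihood test with Benjamini-Hochberg adjustment, and the smallest adjusted p was 1.00. DESeq2 and limma after cyclic loess normalisation also called 0. At an unadjusted p under 0.05 there were 502 windows (2.02%), 202 higher (0.812%) and 300 lower (1.21%) with high fibre. Without any difference, a fraction of 0.05 of windows would on average have such a p. The 2.02% is therefore no excess but lies below that fraction, and the cause of this was not tested. All 4 high fibre libraries lay above all 4 control libraries at 186 windows (0.748%) and below them at 223 (0.897%). Together these were 1.64%, also below the fraction of 0.0286 that a random order of the libraries gives. Without both libraries numbered 1, which stood apart, 0 windows were called and 827 (3.25%) had an unadjusted p under 0.05. Without control library 1 alone the numbers were 0 and 1006 (3.94%), and without high fibre library 1 alone 0 and 756 (2.96%). The median log2 fold change was -0.01, with quartiles of -0.12 and 0.10, and 12013 windows had a positive and 12858 a negative value. Distances between libraries of different diets and of the same diet were alike in size: the SD of log2 differences over windows had a median of 0.468 over 16 pairs of a control and a high fibre library, 0.468 over 6 pairs within control and 0.526 over 6 pairs within high fibre.

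How large a difference the libraries leave room for depended on the level of the window. The 95% interval of the fold change lay inside 2-fold in either direction for 20881 windows (84.0%) and inside 1.5-fold for 14182 (57.0%). Ordered by level into deciles, the lowest decile of windows, with a median of 1.71 CPM, had 8.40% of intervals inside 2-fold, against 85.7% in the third decile at 3.99 CPM and 99.9% in the highest at 53.4 CPM. The median log2 fold change of each decile lay between -0.02 and 0.01, with no order by level. Log2 fold changes above 1 were seen at 55 windows and below -1 at 44, and these windows had a median level of 1.52 CPM and a median SE of 0.553, against 8.81 CPM and 0.190 over all tested windows. At such levels a 2-fold difference was often not detectable.

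**Figure D2:**
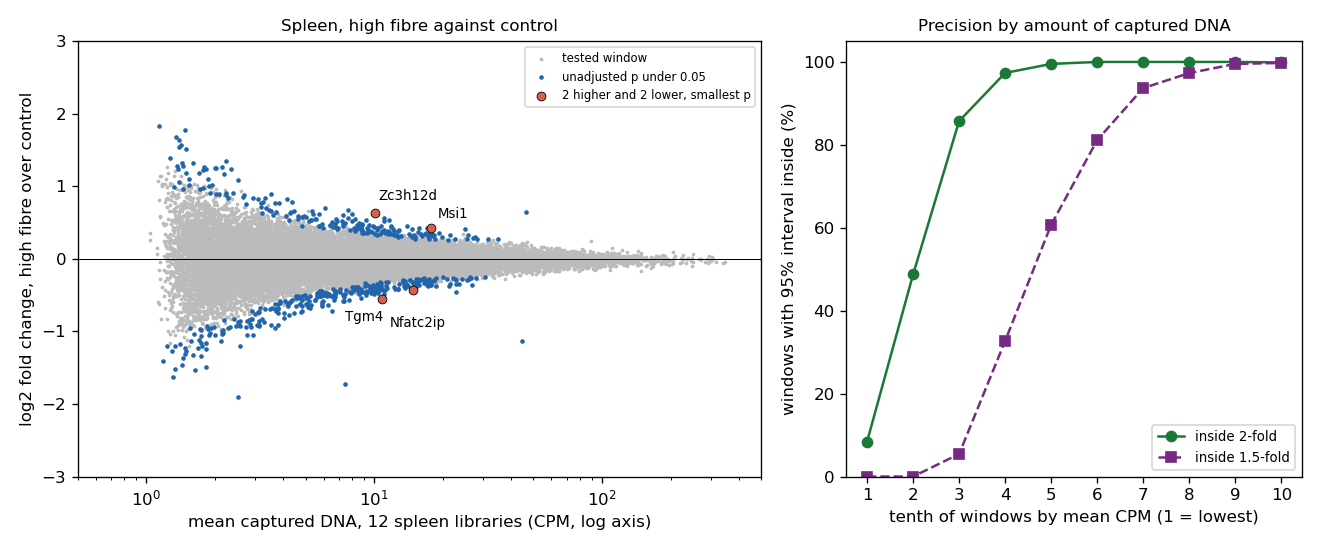
Left, log2 fold change of high fibre over control against mean CPM of the 12 spleen libraries (log axis) for every tested window, with the 502 windows at an unadjusted p under 0.05 in blue and 4 named windows in red. Right, share of windows (%) whose 95% interval lies inside 2-fold or 1.5-fold by decile of mean CPM; it goes from 8.40% in the lowest decile to 99.9% in the highest for 2-fold.

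The windows that came nearest to a call are described here by their values, since none passed the test. Promoter letters are shown for the 2 higher and the 2 lower windows of smallest p that have an entry in the RefSeq table of build GRCm38.p6, because their CpG content sets how much methylated DNA such a stretch can offer to the capture. Each run is the 250 bases before an annotated transcription start of the gene, 5′ to 3′ on the gene's strand, with every CpG in capitals. That start need not be the outer end of the gene. By RefSeq gene positions, Zc3h12d begins at 7832323, Car7 at 104534694 and Nfatc2ip, on the minus strand, at 126396796. Each of these positions lies inside the stretch shown, so part of that stretch is within the gene. Where the counted windows are centred is not given in the sources used here, so the letters show the promoter and not the whole window.
Zc3h12d: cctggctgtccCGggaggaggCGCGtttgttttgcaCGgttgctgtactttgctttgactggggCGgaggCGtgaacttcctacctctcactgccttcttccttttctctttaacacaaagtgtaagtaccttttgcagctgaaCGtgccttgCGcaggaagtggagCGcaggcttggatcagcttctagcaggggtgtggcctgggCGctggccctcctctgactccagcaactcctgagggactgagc
Car7: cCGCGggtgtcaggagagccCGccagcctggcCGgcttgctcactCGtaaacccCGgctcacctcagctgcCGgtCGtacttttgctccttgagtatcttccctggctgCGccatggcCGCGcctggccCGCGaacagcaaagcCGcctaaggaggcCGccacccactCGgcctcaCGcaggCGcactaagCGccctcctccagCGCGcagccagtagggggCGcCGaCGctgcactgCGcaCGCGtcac
Tgm4: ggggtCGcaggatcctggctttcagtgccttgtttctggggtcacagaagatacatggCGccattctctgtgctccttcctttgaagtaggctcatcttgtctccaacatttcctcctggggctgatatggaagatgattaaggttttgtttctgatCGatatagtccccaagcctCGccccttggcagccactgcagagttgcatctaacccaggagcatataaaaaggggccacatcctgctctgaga
Nfatc2ip: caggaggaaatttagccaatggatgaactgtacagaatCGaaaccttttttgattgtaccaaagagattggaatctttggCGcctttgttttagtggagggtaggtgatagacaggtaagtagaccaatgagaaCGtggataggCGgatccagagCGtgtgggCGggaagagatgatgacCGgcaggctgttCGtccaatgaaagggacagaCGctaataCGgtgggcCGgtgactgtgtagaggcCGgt
The Zc3h12d stretch, at chr10:7832220-7832469 on the plus strand, holds 10 CpG, and that of Car7, at chr8:104534450-104534699 on the plus strand, holds 27. The Tgm4 stretch, at chr9:123034491-123034740 on the plus strand, holds 4, and that of Nfatc2ip, at chr7:126396738-126396987 on the minus strand, holds 12. Over 27025 mouse promoters of this length the median was 6 CpG, and 91.7% held at least 1, so the pair of higher windows and the pair of lower windows each include a promoter well above that median.

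Zc3h12d encodes a CCCH zinc finger protein of the Regnase family, which acts on RNA in lymphocytes. Its window had 7.22, 8.96, 7.29 and 7.43 CPM in control libraries 1 to 4 and 11.1, 13.4, 11.4 and 12.2 CPM in high fibre libraries 1 to 4. The groups did not overlap, and acetate libraries lay across the gap at 9.69 ± 1.92 CPM (SD, n = 4). The log2 fold change was 0.63 (SE 0.163, 95% interval 0.29 to 0.96, unadjusted p = 0.000674), the smallest p among the named windows. Msi1 encodes an RNA-binding protein of stem and neural progenitor cells. Control libraries had 13.4, 16.3, 15.9 and 15.3 CPM there, and high fibre libraries 20.7, 18.6, 24.4 and 18.9 CPM. The groups again did not overlap, and the log2 fold change was 0.43 (SE 0.132, 95% interval 0.16 to 0.70).

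Among lower windows, Tgm4, a transglutaminase known from the prostate, had 11.6, 12.9, 11.8 and 14.4 CPM in control libraries and 8.34, 9.08, 9.45 and 7.65 CPM in high fibre libraries. No high fibre value reached the lowest control value, and the log2 fold change was -0.56 (SE 0.153, 95% interval -0.87 to -0.25). Nfatc2ip encodes a protein that binds the transcription factor NFATc2 and takes part in cytokine expression of T helper cells. It had 15.6, 17.1, 16.6 and 13.8 CPM in control and 12.5, 11.5, 10.9 and 12.1 CPM in high fibre libraries, with a log2 fold change of -0.43 (SE 0.133, 95% interval -0.70 to -0.16). The groups did not overlap, and acetate libraries, at 15.8 ± 1.54 CPM, lay with the control libraries. Wnk1 encodes a kinase that regulates chloride cotransporters. Control libraries had 19.9, 26.6, 21.7 and 23.8 CPM and high fibre libraries 15.8, 17.5, 20.7 and 13.6 CPM, so high fibre library 3 lay above control library 1. The log2 fold change was -0.46 (SE 0.142, 95% interval -0.75 to -0.17).

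**Figure D3:**
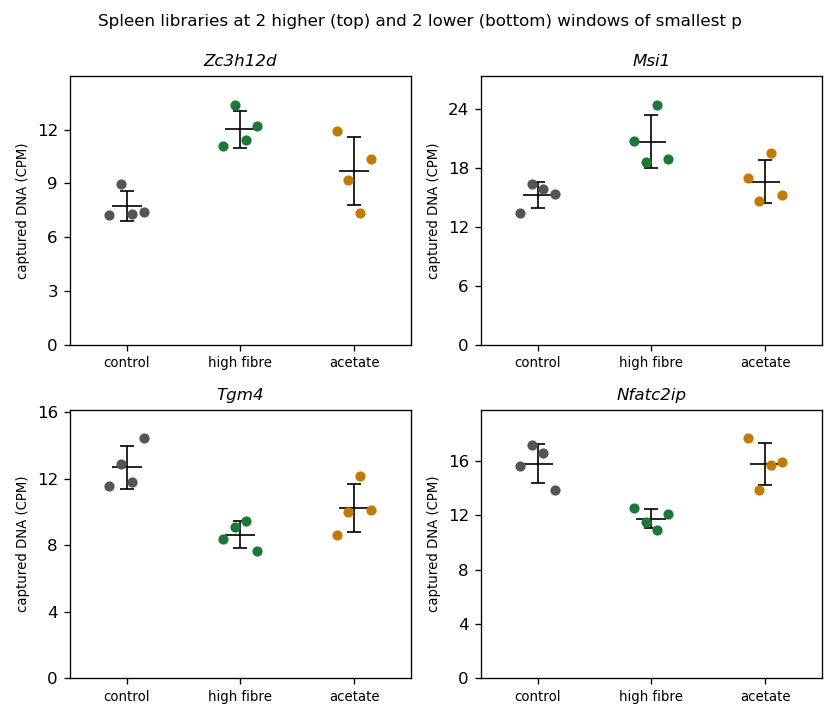
Captured DNA (CPM) in each spleen library at 2 higher (Zc3h12d, Msi1) and 2 lower (Tgm4, Nfatc2ip) named windows, those of smallest p in each direction; points are libraries and bars are mean and SD of 4. High fibre and control libraries do not overlap at any of the 4 windows.

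A further 7 higher windows ranged in log2 fold change from 0.42 to 1.77. They were Car7, a carbonic anhydrase (13.1 ± 1.64 CPM in control and 17.6 ± 0.389 in high fibre libraries), Il27ra, a subunit of the interleukin 27 receptor (8.85 ± 2.70 and 12.98 ± 1.38), Traip, a ubiquitin ligase of the replication stress response, Gp1bb, a subunit of the platelet receptor for von Willebrand factor, the homeobox genes Isx and Hoxd8, and the zinc finger gene Zfp865. The largest value was that of Isx, on 0.473 ± 0.217 and 1.78 ± 1.28 CPM, and its groups overlapped, since high fibre library 1 had 0.357 CPM. Hoxd8 had 1.35 ± 0.521 and 2.94 ± 0.432 CPM without overlap. The next 7 lower windows ranged from -0.92 to -0.35. They were Birc5, which encodes the apoptosis inhibitor survivin (4.20 ± 0.861 and 2.23 ± 0.323 CPM), Sbf2, a member of the myotubularin family, Aprt, an enzyme of adenine salvage, Dffb, the DNase that cuts DNA in apoptosis (3.67 ± 0.938 and 1.90 ± 0.269 CPM), Whamm, which promotes actin assembly, Mterfd1, of the mitochondrial transcription termination factor family, and Ttc6, a tetratricopeptide repeat gene. Groups did not overlap at 7 of the 10 higher and 7 of the 10 lower windows, beside 0.748% and 0.897% of all tested windows. The 20 were chosen for their small p, which favours groups that do not overlap. All 20 kept the sign of their value under every alternative of scaling, filter, tool and left-out library in which they were tested. Windows picked for small p in these same libraries tend to keep it, so this cannot count as support. The smallest adjusted p that any of them reached was 0.549, at Il27ra without both libraries numbered 1 (edgeR's quasi-likelihood test).

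Windows of Ffar2, Ffar3 and Hcar2, receptors for products of fermentation, had nearly the same level on both diets. The receptor genes Ffar2 and Ffar3 lie beside each other on chromosome 7. Ffar2 had 63.5, 39.4, 49.0 and 41.2 CPM in control libraries and 61.1, 44.3, 38.9 and 45.4 CPM in high fibre libraries, with a log2 fold change of -0.02 (95% interval -0.32 to 0.29). The highest value of each diet was that of the library numbered 1. Ffar3 had 24.4 to 37.7 CPM in control and 25.5 to 37.2 CPM in high fibre libraries, with a log2 fold change of 0.00 (95% interval -0.29 to 0.29). Hcar2, a receptor for butyrate and ketone bodies, had 31.7 to 40.3 and 32.7 to 37.7 CPM, with a log2 fold change of 0.01 (95% interval -0.24 to 0.26). All 3 receptor windows lay well above the median of tested windows, 8.81 CPM, and their intervals leave no room for a 1.5-fold difference. Acss2, which makes acetyl-CoA from acetate, had a log2 fold change of 0.01 (95% interval -0.39 to 0.41). The transporter gene Slc5a8 was low, 1.35 to 3.64 CPM in control and 1.43 to 6.24 CPM in high fibre libraries, and its log2 fold change of 0.24 had an interval of -0.58 to 1.05, which includes a 2-fold difference; without high fibre library 3 the value was -0.29. The transporter gene Slc16a1 did not pass the filter, with 2 to 4 reads in control and 0 to 6 reads in high fibre libraries.

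The DNA methyltransferase genes Dnmt3a and Dnmt1 also had log2 fold changes near 0. Dnmt3a, a de novo DNA methyltransferase, had the most captured DNA among the fixed genes apart from Gm10800, 112 ± 9.57 CPM in control and 112 ± 9.15 CPM in high fibre libraries, with a log2 fold change of 0.01 (95% interval -0.22 to 0.23). Dnmt1, which copies methylation after replication, had 19.8 ± 1.49 and 19.8 ± 2.07 CPM and a log2 fold change of -0.00 (95% interval -0.25 to 0.25). The histone deacetylase gene Hdac3 had 14.5 ± 3.44 and 16.6 ± 2.46 CPM and a log2 fold change of 0.20 (95% interval -0.15 to 0.56). Tet2, which oxidises methylated cytosine, was not tested, with 3 to 4 reads in control and 1 to 8 reads in high fibre libraries.

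At lineage genes every interval included 0 and lay inside 2-fold. Foxp3, the transcription factor of regulatory T cells, had 8.94 ± 0.978 CPM in control and 9.33 ± 1.81 CPM in high fibre libraries (log2 fold change 0.05, 95% interval -0.31 to 0.40). Il10, an anti-inflammatory cytokine gene, had 2.30 ± 0.548 and 2.501 ± 1.21 CPM (0.10, -0.64 to 0.84), and high fibre library 2 alone, at 4.30 CPM, lay above all control libraries; without it the log2 fold change was -0.28. For the B cell genes Cd79a and Pax5 the log2 fold changes were -0.15 (-0.63 to 0.33) and -0.04 (-0.49 to 0.41). The T cell gene Cd3e had 0.18 (-0.17 to 0.53), the myeloid regulator Spi1 -0.18 (-0.47 to 0.11) and the erythroid regulator Gata1 0.12 (-0.17 to 0.41). The Gm10800 window, with most of the reads, had a log2 fold change of -0.00 (95% interval -0.34 to 0.33). High fibre and control libraries overlapped at all 16 of these tested genes.

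**Figure D4:**
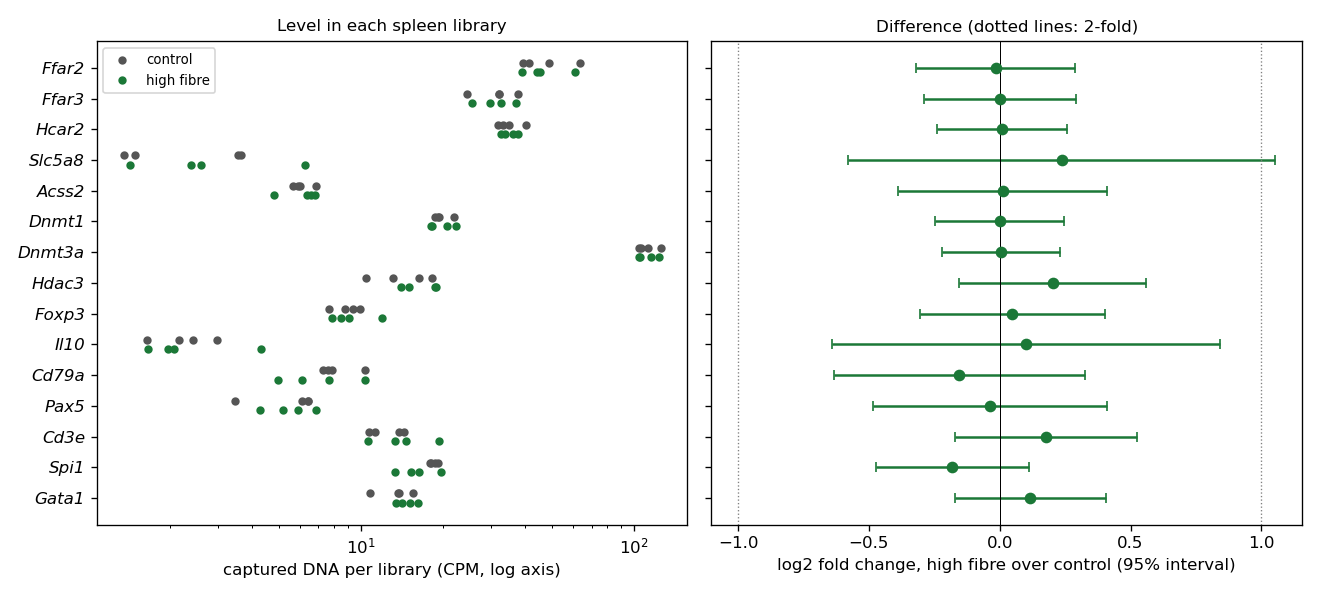
Left, captured DNA (CPM, log axis) in each control and high fibre library at 15 genes of fatty acid sensing, DNA methylation and spleen cell lineages. Right, the log2 fold change with its 95% interval; the dotted lines mark 2-fold, which only the interval of Slc5a8 crosses.

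Medians of gene lists lay near 0. The 21 lists held 548 genes, of which 422 were tested, and 0 members of any list were called (background 0%). An unadjusted p under 0.05 was seen at 6 members (1.42%), beside 2.02% of all tested windows, and libraries did not overlap at 4 (0.948%), beside 1.64%. The median log2 fold change of a list lay between -0.05 and 0.03 for 19 lists, beside -0.01 over all windows. Of 8 tested genes of short-chain fatty acid sensing, 3 had a positive and 5 a negative value, with a median of -0.02. Their smallest p was that of Gnaq, a G protein subunit (7.97 ± 2.03 CPM in control and 10.03 ± 2.09 in high fibre libraries, log2 fold change 0.34, 95% interval -0.07 to 0.74). Of 18 genes of acetate and monocarboxylate transport and use, 7 were positive and 11 negative, with a median of -0.02. In that list the lowest value was that of Acss1, the mitochondrial acetate enzyme, at -0.34 (95% interval -0.80 to 0.12). The 25 genes of DNA methylation and one-carbon metabolism had a median of -0.01, with Mat2b, which regulates the synthesis of S-adenosylmethionine, at 0.45 (95% interval -0.04 to 0.95) and Mtr, methionine synthase, at -0.29 (-0.63 to 0.05). The 28 histone acetylation genes had a median of -0.02, and the acetyltransferase gene Kat6a had -0.24 (-0.56 to 0.09).

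Immune lists also held values of both signs. The 19 B cell genes had 12 positive and 7 negative values (median 0.01), and the 19 T and NK cell genes 8 and 11 (median -0.03). Summed over the list, B cell windows had 128 to 149 CPM in control and 127 to 149 CPM in high fibre libraries, and T and NK cell windows 321 to 400 and 350 to 375 CPM. The 24 genes of helper and regulatory T cells had 13 positive and 11 negative values (median 0.02), the 25 myeloid genes 12 and 13 (median -0.02) and the 18 inflammation genes 8 and 10 (median -0.02). The interferon list was less even, with 6 positive and 12 negative values of 18 and a median of -0.03. Of the 6 list members with an unadjusted p under 0.05, 4 were of immune or stromal lists, and these lay under the median of all tested windows, 8.81 CPM. Cebpa, a myeloid transcription factor, had 1.43 ± 0.282 CPM in control and 2.63 ± 1.18 CPM in high fibre libraries (log2 fold change 0.84, 95% interval 0.05 to 1.64). Il1b, an inflammatory cytokine gene, had 2.14 ± 0.435 and 1.10 ± 0.546 CPM (-0.96, -1.85 to -0.07). Nr2f2, a transcription factor of veins and stroma, had 4.64 ± 1.48 and 2.67 ± 0.726 CPM (-0.81, -1.42 to -0.20). Ighg1, the constant region of IgG1, had 6.63 ± 0.218 and 5.01 ± 0.951 CPM (-0.42, -0.81 to -0.02). After Benjamini-Hochberg adjustment of edgeR's quasi-likelihood test, the p of each of the 4 was 1.00.

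The lists of chemokines and Hox genes had the medians farthest from 0. Of 17 chemokine and receptor genes tested, 6 were positive and 11 negative, with a median of -0.19. Its members of smallest p pointed in opposite directions: Ccl20, which attracts cells with the receptor Ccr6, had 1.77 ± 0.251 CPM in control and 0.948 ± 0.401 CPM in high fibre libraries without overlap (-0.89, 95% interval -1.81 to 0.04), while Ccl2, a monocyte attractant, had 1.01 ± 0.647 and 2.04 ± 0.835 CPM (0.91, -0.07 to 1.88). Of the 38 Hox genes, 16 were tested, 11 positive and 5 negative, with a median of 0.15, and groups did not overlap at 1 of the 16, Hoxd8, beside 1.64% of all tested windows. The other 22 Hox windows had too few reads, and a window that passes the filter in one diet only is more likely to show a difference, so the median describes the tested windows and not all Hox genes. Over all alternatives the chemokine median ranged from -0.20 to -0.09 and the Hox median from 0.04 to 0.20. The SD of the list median among single libraries of one diet was 0.283 and 0.301 on the log2 scale. That SD is wider than the spread of a difference between groups of 4 libraries, so it does not test the medians of -0.19 and 0.15.

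**Figure D5:**
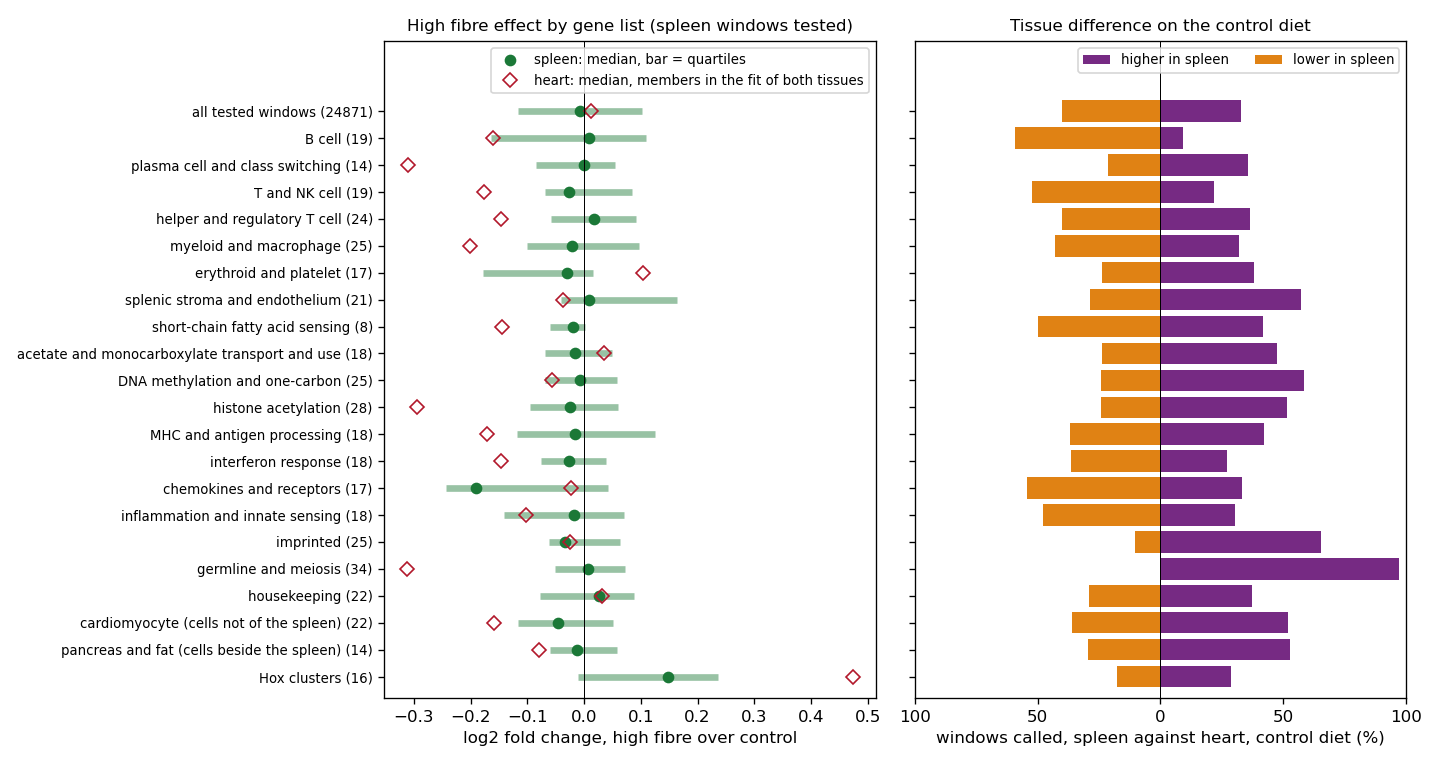
Left, median log2 fold change of high fibre over control with quartiles for the tested spleen windows of each list (number in brackets), and the heart median of the list's members in the fit of both tissues. Right, share of list windows (%) called higher or lower in spleen than in heart on the control diet under TMM scaling, a split that other scalings move. Spleen medians stay between -0.19 and 0.15.

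Sets of windows grouped by sequence or kind also had medians near 0. Imprinted genes, where one parental allele is methylated, had a median log2 fold change of -0.03 over 25 tested windows, and H19, a maternally expressed RNA, had 2.70 ± 1.04 CPM in control and 4.22 ± 1.11 CPM in high fibre libraries (0.64, 95% interval 0.02 to 1.27). The 34 germline genes, whose promoters are methylated in most body cells, had a median of 0.01 and values only between -0.13 and 0.24, and all 34 intervals lay inside 2-fold. Windows with a promoter of high, intermediate and low CpG content had medians of -0.00, -0.01 and -0.01 over 4081, 3633 and 5219 windows. Across the 12933 tested windows with a promoter sequence, 52.0% of those tested, the number of CpG and the log2 fold change had a Pearson correlation of 0.0243 and a Spearman correlation of 0.0201; these windows share libraries and are not independent, and windows without a sequence were not covered. Olfactory receptor genes (408 windows), vomeronasal receptor genes (100) and microRNA genes (456) had medians of -0.02, -0.04 and -0.00. On every autosome and on X the median lay between -0.02 and 0.01. On Y, with 11 tested windows, 3 positive and 8 negative, it was -0.11, and the median level of these windows was 4.20 ± 0.751 CPM in control and 3.03 ± 0.240 CPM in high fibre libraries. These groups overlapped, at 3.202 to 4.90 and 2.71 to 3.22 CPM.

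The spleen was then set against the heart, where the same diets were compared in left ventricle. In the fit of all 23 libraries, high fibre against control gave 5022 called windows in heart (14.8%) and 0 in spleen (0%), where 1375 (4.05%) had an unadjusted p under 0.05. The test of the difference itself, the effect in spleen minus the effect in heart, called 19 windows (0.0559%), 13 (0.0383%) with a more positive and 6 (0.0177%) with a more negative effect in spleen, and 5571 (16.4%) had an unadjusted p under 0.05. The split into more positive and more negative was 11 and 6 with DESeq2's size factors, 52 and 20 with totals outside the 5 largest windows, and turned to 8 and 6355 with library totals, which moved the median difference over all windows from 0.03 to -0.66. Of the windows called in heart, 1935 were higher and 3087 lower with high fibre, and 739 and 3083 of them had enough reads for the spleen fit. These were split in spleen: the 739 that were higher in heart had a spleen median of -0.00, with 49.8% positive, and the 3083 that were lower had a spleen median of -0.01, with 54.3% negative. Over the deciles of spleen level, among windows of the spleen fit, the median heart effect went from 0.24 in the lowest to -0.39 in the highest. Spleen medians stayed within -0.02 and 0.01 there. Dependence of the heart effect on the level in heart was not tested. The heart counts depended on scaling: the share of higher windows among those called was 38.5% under TMM, 52.1% with DESeq2's size factors, 50.3% with totals outside the 5 largest windows and 99.9% with library totals.

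Of the 19 windows, 18 were also called in heart, 16 had a spleen effect nearer 0 than the heart effect, and 6 had an unadjusted p under 0.05 in spleen. Windows of the predicted genes Gm10722, Gm10717, Gm11168, Gm10721 and Gm21738 were among them, with heart effects of -1.82 to -1.63 and spleen effects of -0.05 to 0.04 on the log2 scale. These were chosen after their values were seen, and near-identical repeats can share reads among such windows. Ear14, not called in heart, had a heart effect of 0.09 and a spleen effect of -2.68. It had 6, 17, 9 and 8 reads in control and 1, 2, 0 and 2 in high fibre spleen libraries, too few for the spleen fit. Spleen effects also exceeded heart effects in size at Trps1 (-0.74 beside 0.52) and Hs3st5 (-1.36 beside 1.01). Ear14, Trps1 and Hs3st5 were likewise chosen after their values were seen. Wnk1 was more negative in spleen by -1.09 (SE 0.195, adjusted p = 0.0202 by edgeR's quasi-likelihood test), with a heart effect of 0.63. Il27ra and Msi1 were more positive in spleen by 1.31 (SE 0.264, adjusted p = 0.0439) and 0.96 (SE 0.194, adjusted p = 0.0439), with heart effects of -0.76 and -0.54. These 3 windows were chosen for their small p in spleen, which favours a difference between the tissues. Scaled by library totals, the difference kept its call at Wnk1 and lost it at Il27ra (adjusted p = 0.0746) and Msi1 (adjusted p = 0.363). Leaving out 1 control or high fibre library at a time, the 19 windows became 602 without spleen control library 1 and 0 to 9 without any other. They became 0 without spleen control library 2, heart control library 3, or heart high fibre library 2 or 4. With the number in the title as a block they became 980, although the labels do not say that this number marks the same mouse.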

How the data were processed

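Genomic DNA of spleen and heart was enriched for methylated CpG with MethylMiner, per the labels' protocols. The deposited values are raw counts of reads per 3 kb window at transcription start sites, 1 column per library, which the authors did not normalize or pool; their sum per spleen library ranges from 4.36 to 9.87 M (mega) reads. Build GRCm38, featureCounts 1.5.1, BWA 0.7.10, edgeR 3.16.5 and bcl2fastq 2.19.1.403 are listed, per the submitters' processing notes; the treatment of multiply aligned and duplicate reads is not given in the sources used here. Counts limit precision, and intervals cover the spread between libraries as modelled.

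The main test was edgeR 4.0.16 (R 4.3.3), glmQLFit and glmQLFTest with TMM scaling, a low-count filter (filterByExpr, minimum 10 reads) and p-values adjusted by Benjamini-Hochberg over 24871 windows, on all 12 spleen libraries. Fold changes are edgeR's log2 values with a prior count of 0.125; intervals cover 95%. A second fit held all 23 libraries. Alternatives were 3 other scalings, cyclic loess with limma 3.58.1, no filter, DESeq2 1.42.0, the 8 libraries alone, a replicate block and leaving out each library; leaving out both libraries numbered 1 was chosen after seeing the data. The test was checked on simulated data. Members and gene lists were chosen with earlier results of these data known. Named windows were the 10 higher and 10 lower of smallest p (predicted, RIKEN, microRNA and duplicated symbols left out), 18 fixed genes and the 2 members of smallest p per list; 1 of the higher windows is counted but not reported here. Gene positions came from RefSeq, build GRCm38.p6, matched by symbol or synonym for 77.5% of windows. CpG classes of promoters (300 bases) were high above an observed over expected ratio of 0.75 with over 55% GC, and low under 0.48.

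Whether equal numbers pair libraries was checked by correlating deviations from group means. Libraries 1 to 4 of control and high fibre spleen had correlations of 0.481, 0.207, 0.113 and 0.014 with the library of the same number. Control library 2 correlated more with high fibre library 3 (0.276), so the values did not settle the pairing. The labels do not say that a number is shared between diets, and the numbers were not used as pairs.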

Additional observations from a re-analysis of the deposited data

Results flagged for a closer look

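In 14 of 168 groups of 4 libraries (8.33%), 1 library lay apart from the others. Chance gives about 1 in 20 for independent groups of normal values. These groups share the same libraries and many are windows named for small p, so the share cannot show an excess. Control library 2 was apart at Zc3h12d, with 8.96 CPM beside 7.22 to 7.43 CPM in the others, at Gm10800, with 463840 CPM, and in the share of reads in the top 1% of windows, with 63.2%. Control library 1 was apart at Pax5 (3.46 CPM beside 6.10 to 6.403), Airn, an imprinted antisense RNA (36.7 CPM beside 22.2 to 24.1), and Reep5 (3.158 CPM beside 2.82 to 2.87). Control library 4 was apart at Isx (0.149 CPM) and Gnaq (10.99 CPM beside 6.77 to 7.28).

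Among high fibre libraries, library 1 was lowest at Car7 (17.04 CPM beside 17.8 in the others) and highest in the capture measure of imprinted and germline against housekeeping windows (1.84 beside 1.66 to 1.68). High fibre library 2 was highest at Il10 (4.30 CPM beside 1.67 to 2.07) and lowest at Acat2, an acetoacetyl-CoA thiolase (8.44 CPM beside 11.1 to 11.3). High fibre library 3 was lowest at Irf5, an interferon regulatory factor (20.9 CPM beside 27.5 to 27.7), and highest at Ins2, an insulin gene (7.31 CPM beside 3.34 to 3.89).

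The effect of high fibre differed between spleen and heart at 3 named windows by the test of the difference: Msi1 (0.96), Il27ra (1.31) and Wnk1 (-1.09, spleen minus heart, log2). These windows were chosen for their small p in spleen, and with library totals the call was lost at Il27ra (adjusted p = 0.0746) and Msi1 (adjusted p = 0.363, edgeR's quasi-likelihood test). Leaving out 1 of 4 libraries (spleen control 2, heart control 3, heart high fibre 2 or 4) left 0 such windows.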

How the results depend on the processing

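No window was called between high fibre and control spleen under any alternative, and the smallest adjusted p over them was 0.259 (edgeR's quasi-likelihood test), without both libraries numbered 1. The 502 windows at an unadjusted p under 0.05 (2.02%) became 296 (1.19%) with library totals and 827 (3.25%) without both libraries numbered 1. Without a filter they were 924 of 36766 tested windows (2.51%). When 1 library was left out they were 436 to 1006 (1.71% to 3.94%), with 1006 without control library 1 and 756 (2.96%) without high fibre library 1. All these shares lay under 5%. Windows with an interval inside 2-fold numbered 19837 to 21220, where 21220 was without a filter, out of 36766 tested windows. The main fit had 20881 of 24871. Leaving out a control or high fibre library turned the sign of the difference, high fibre minus control, in the share of reads in Gm10800 (-1.87 to 1.26 percentage points), in the share in the top 1% of windows (-1.70 to 1.10) and in the share of windows without reads (-0.263 to 1.23). The 19 windows whose effect differed between spleen and heart became 6363 with library totals and 0 to 602 when 1 library was left out. The cause was not tested.

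With the replicate number as a block, 0 windows were called in spleen and 645 had an unadjusted p under 0.05; control library 1 correlated best with high fibre library 1 (0.481), but control library 2 correlated more with high fibre library 3 (0.276) than with its own number (0.207). With the number in the title as a block across heart and spleen, the high fibre effect differed between the tissues at 980 windows. Deviations of heart and spleen libraries with the same title number correlated from -0.113 to 0.375. Libraries of unlike title numbers were not correlated across the tissues, so these values do not show whether the number marks the same mouse.

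Signs turned at 11 fixed genes, whose reported log2 fold changes lay between -0.04 and 0.24. Ffar3 became -0.000245 with DESeq2's size factors, -0.00111 with cyclic loess, -0.0182 without a filter and -0.00562 with DESeq2. Dnmt1 became 0.000532 with DESeq2's size factors, 0.00597 with library totals, 0.00360 with cyclic loess and 0.0162 with the 8 libraries alone. Ffar2 became 0.0157 with library totals and 0.000122 with the 8 libraries alone. Gm10800 became 0.0128 with totals outside the 5 largest windows, 0.00235 with cyclic loess, 0.0126 with the 8 libraries alone and 0.0990 without both libraries numbered 1. Pax5 became 0.0126 with cyclic loess, Hcar2, Acss2 and Dnmt3a became -0.0117, -0.00511 and -0.0140 without a filter, and Acss2 became -0.0539 without both libraries numbered 1. When 1 library was left out, the log2 fold changes ranged from -0.0513 to 0.117 at Acss2, -0.0702 to 0.0541 at Dnmt1, -0.0491 to 0.0634 at Dnmt3a, -0.169 to 0.142 at Ffar2, -0.110 to 0.0987 at Ffar3, -0.0818 to 0.123 at Foxp3, -0.119 to 0.0780 at Gm10800, -0.0386 to 0.0824 at Hcar2, -0.280 to 0.262 at Il10, -0.196 to 0.0733 at Pax5 and -0.288 to 0.492 at Slc5a8.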

Other observations

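Repetitive gene families had medians near 0, with wide ranges of single values in most. Of 24 clustered protocadherin genes, which encode adhesion proteins of neurons and are known for methylated promoters, all were tested; their median level was 24.7 ± 6.21 CPM in control and 25.6 ± 2.85 CPM in high fibre libraries, and all 24 intervals lay inside 2-fold. Of 251 immunoglobulin V, D and J segments, 39 had enough reads, 19 with a positive and 20 with a negative log2 fold change (median -0.01, range -0.54 to 0.53), and 69.2% of intervals lay inside 2-fold, beside 84.0% over all tested windows. Of 221 T cell receptor segments, 41 were tested, 21 positive and 20 negative (median 0.01, range -1.90 to 0.75), with 65.9% of intervals inside 2-fold. Ribosomal protein genes (43 tested) had a median of -0.00 (range -1.13 to 0.42) and 5S ribosomal RNA genes (97 tested) a median of 0.01 (range -0.62 to 1.17), with 81.4% and 79.4% of intervals inside 2-fold.

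A pair of windows had the largest variation between libraries of one diet, at the end of a graded tail. Among 16993 windows above 5 CPM, the coefficient of variation within diets had a median of 15.3%. The predicted genes Gm21887 and Gm15726 ranked 1 and 2 with 94.2% and 72.5%, and both were chosen after their values were seen. Hist1h4m came next, with a coefficient of 0.602 as a fraction. Gm15726 had 12.5, 53.3, 42.7 and 157 CPM in control libraries 1 to 4, 32.4, 38.2, 37.5 and 12.96 CPM in high fibre libraries and 36.2, 27.1, 71.7 and 10.7 CPM in acetate libraries. Gm21887 had 0, 10.1, 5.30 and 29.1 CPM, then 5.12, 3.66, 4.64 and 0 CPM, then 7.79, 6.73, 15.3 and 0 CPM in the same order. Control library 4 was the highest at both, and control library 1, high fibre library 4 and acetate library 4 were the lowest 3 at both. The log2 fold changes of high fibre over control were -1.14 (SE 0.465) at Gm15726 and -1.73 (SE 0.775) at Gm21887, with an adjusted p of 1.00 at both by edgeR's quasi-likelihood test.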
